A study of Mus musculus with 2 samples.

Results

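Fmod and Tnmd fibroblasts are described here in inflamed mouse back skin: dermal cells that carry transcripts of the collagen-binding proteoglycan fibromodulin (Fmod) and of tenomodulin (Tnmd), a membrane protein of tendon cells. They were chosen by a rule on their counts, which are unique molecular identifiers (UMIs), 1 per captured transcript. A barcode, the tag of 1 droplet, needed at least 1000 UMIs, 200 or more genes and no more than 10% of its UMIs from mitochondrial genes. The fibroblast gate then asked for at least 0.5% of UMIs from Col1a1, Col1a2, Col3a1 and Dcn together and less than 0.5% from Krt5 and Krt14. Members also held at least 3 UMIs of Fmod plus Tnmd and fewer than 3 of the 6 dermal papilla genes Crabp1, Lef1, Rspo3, Dkk2, Pappa2 and Dio2. The rule found 267 members among 21231 kept barcodes, 214 of 9605 in the Chrna5 knockout (KO) library and 53 of 11626 in the wild-type (WT) library. Fmod, Tnmd and the gate genes chose the members, so their levels are given as a description and support nothing.

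Small leucine-rich proteoglycans such as fibromodulin, asporin, osteoglycin and keratocan bind collagen fibrils and set their spacing and width. Tenomodulin is best known from tendons and ligaments, where it is used as a marker of mature tendon cells under the control of the transcription factors scleraxis and mohawk. Dermal fibroblasts are also a source of chemokines and acute phase proteins in inflamed skin.

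The KO library came from Chrna5-/- mice, which lack the alpha 5 subunit of nicotinic acetylcholine receptors and were backcrossed to the C57BL/6 background. The WT library came from C57BL/6 mice, for which the labels name both the N and the J substrain. All mice were females aged 6 to 8 weeks, and both groups received imiquimod, which activates Toll-like receptors and is used to induce psoriasis-like skin inflammation in mice. They were given 62.5 mg of 5% cream on the shaved back on 6 days, and dorsal skin was taken on day 7, digested with collagenase and sorted for cells that exclude a dye for dead cells. Each treated group had 5 mice per the labels, and whether cells of several mice were pooled is not stated there. With 1 library per genotype there is no replicate and no test, so each KO against WT value is a difference between 2 libraries, and genotype and library cannot be told apart. Intervals are 95% intervals of counting error only.

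Kept barcodes had a median of 6779 UMIs in the KO library and 6375 in the WT library. Members had a median of 6947.5 UMIs and 2219 genes in KO, against 6614 UMIs and 2107 genes in WT. Summed over members there were 1532666 UMIs in KO and 396675 in WT. In counts per 1e6 UMIs (CPM), 1 UMI was worth 0.652 in KO and 2.52 CPM in WT. The libraries shared 49 barcode sequences, of which 3 lay among KO members and 0 among WT members, and leaving these out gave 211 KO and 53 WT members. Chrna5 had 0 UMIs in members of both libraries, which allows up to 1.96 CPM in KO and 7.56 CPM in WT. No source used here gives the deleted stretch of Chrna5, so these counts do not check the genotype. No doublet caller was run, and an alternative left out barcodes with markers of another cell class.

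Over the whole fibroblast gate 453 KO and 178 WT barcodes held 1 or more UMIs of Fmod or Tnmd. The rule asks for 3 or more UMIs of the pair, which favours joint detection, and how the members split is a description. Both were detected in 181 of 214 KO members (84.6%, 79.0 to 89.1) and 40 of 53 WT members (75.5%, 61.7 to 86.2), Fmod without Tnmd in 24 KO and 8 WT members, and Tnmd without Fmod in 9 KO and 5 WT members. Most members lay far from the limit of 3: 166 KO members (77.6%) and 38 WT members (71.7%) held 10 or more UMIs of the pair. Just inside the limit, 28 KO and 11 WT members held 3 to 4 UMIs, and just outside it 218 KO and 120 WT barcodes held 1 to 2. Other cell classes, where such counts can come from free RNA in the droplets, rarely reached the limit. Leukocyte-gate barcodes held a UMI of the leukocyte gene Ptprc and passed neither the collagen nor the keratin limit. Among them 0 of 1215 in KO and 0 of 1115 in WT reached 3 UMIs, which allows shares of up to 0.303% and 0.330%. They had medians of 5759 UMIs in KO and 7931 in WT. Among keratinocyte-gate barcodes 2 of 872 in KO and 3 of 3242 in WT reached 3 UMIs, at medians of 19049 and 8678.5 UMIs.

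**Figure D1:**
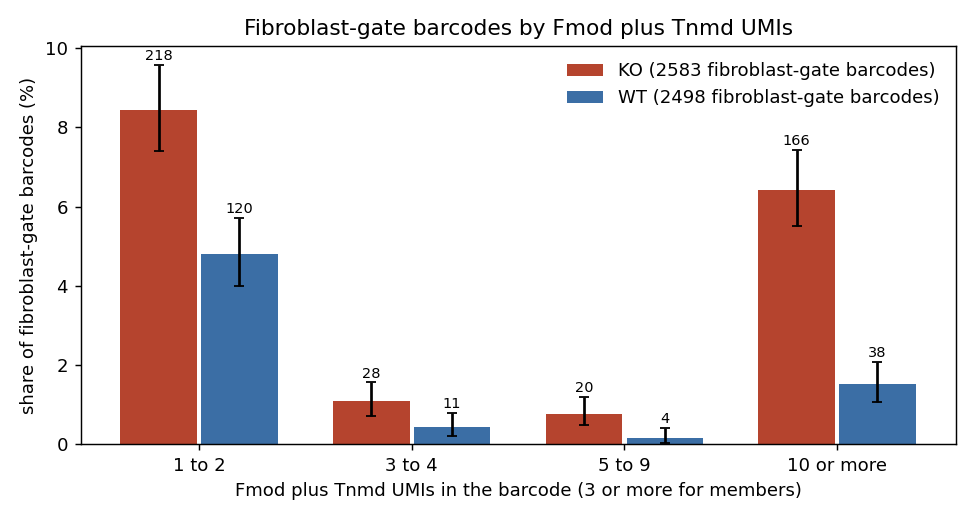
Share of fibroblast-gate barcodes (%) by the number of Fmod plus Tnmd UMIs, KO left and WT right in each pair; numbers over the bars are barcodes, error bars are exact 95% intervals of counting error, and barcodes with 3 or more of the 6 papilla genes are left out of the bars. Barcodes with 10 or more UMIs (166 in KO, 38 in WT) outnumber those with 3 to 4 (28 in KO, 11 in WT) and those with 5 to 9 (20 in KO, 4 in WT).

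The start regions of the genes that define and lead the members differ in base composition. The windows run from 250 bases before to 50 bases after the annotated start, 5′ to 3′ on the gene's strand, from RefSeq on GRCm38.p6. Fmod and Tnmd are shown because they chose the members, and Coch, the gene of the secreted matrix protein cochlin, because it is among the genes that lead the members. The letters TAATTA (a homeodomain core), GGAATG (a TEAD core) and CTTTGA (a TCF and LEF core) were searched on both strands, and matches are in capitals; none of them overlap.
Fmod: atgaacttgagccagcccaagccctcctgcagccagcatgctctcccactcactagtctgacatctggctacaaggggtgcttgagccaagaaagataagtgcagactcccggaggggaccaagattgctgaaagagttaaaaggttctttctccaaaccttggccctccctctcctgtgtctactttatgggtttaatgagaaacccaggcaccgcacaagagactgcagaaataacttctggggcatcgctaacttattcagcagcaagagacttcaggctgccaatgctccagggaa
Tnmd: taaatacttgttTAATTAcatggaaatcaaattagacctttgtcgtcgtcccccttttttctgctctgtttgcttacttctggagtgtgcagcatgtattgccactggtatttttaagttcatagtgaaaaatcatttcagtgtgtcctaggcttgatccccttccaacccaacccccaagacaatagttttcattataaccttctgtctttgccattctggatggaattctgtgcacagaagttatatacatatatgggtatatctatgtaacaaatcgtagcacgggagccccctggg
Coch: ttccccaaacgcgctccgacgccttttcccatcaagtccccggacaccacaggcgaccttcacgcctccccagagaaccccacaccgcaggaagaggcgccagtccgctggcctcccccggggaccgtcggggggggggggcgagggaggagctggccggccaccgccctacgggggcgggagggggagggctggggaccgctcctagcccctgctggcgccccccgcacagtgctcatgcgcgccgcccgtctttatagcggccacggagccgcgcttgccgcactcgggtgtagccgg
These windows lie at chr1:134037004-134037303, chrX:133850758-133851057 and chr12:51593091-51593390, all on the plus strand, and hold 51.0%, 40.0% and 73.7% G and C, against a median of 52.7% over 32851 windows of the same length. Tnmd carries TAATTA, found in 5.29% of all windows, and the other 2 have none of the 3 motifs. GGAATG is found in 14.7% and CTTTGA in 16.0% of all windows. Of 14 genes looked up, the members' markers, genes higher in members and the TEAD target Amotl2, 3 held a match (Tnmd, Ogn and Amotl2).

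The markers that the rule did not read were present. Asporin (Aspn) was detected in 208 of 214 KO members (97.2%) and 50 of 53 WT members (94.3%), against 32.5% of 1815 KO and 27.1% of 1916 WT other dermal fibroblasts. Other dermal fibroblasts are gate barcodes with fewer than 3 UMIs of Fmod plus Tnmd, fewer than 3 papilla genes and fewer than 2 UMIs of Pi16 plus Dpp4. Over single members Aspn ran from 0 to 22177 CPM with a median of 4736 in KO, and from 0 to 12452 CPM with a median of 3504 in WT. Gliomedin (Gldn), a protein that Schwann cells use to gather sodium channels at nodes, was detected in 88.3% of KO and 83.0% of WT members, against 217 of 1815 KO and 115 of 1916 WT other dermal fibroblasts. Its summed level was 711 CPM in KO members (670 to 755) and 668 CPM in WT members (590 to 754), and 43.2 and 18.3 CPM in other dermal fibroblasts. Fmod itself reached 4627 CPM in KO and 3497 CPM in WT members, and Tnmd 875 and 494 CPM. Members held 87.7% of the fibroblast gate's Fmod UMIs in KO and 98.0% in WT, but 78.7% and 62.0% of its Tnmd UMIs. Of the 8090 Fmod UMIs in KO, 928 lay in 18 barcodes with 3 or more UMIs of the pair that the papilla limit left out. In WT that limit left out 0 such barcodes. On mm10 with the GENCODE vM21 annotation, Fmod spans chr1:134037254-134048277, Tnmd chrX:133850980-133865577, Aspn chr13:49544443-49567565, Gldn chr9:54286486-54341786 and Coch chr12:51593341-51605771, all on the plus strand. The start of Tnmd lies upstream of the RefSeq start used for its window.

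The fibroblast gate rested mostly on decorin. Dcn was detected in every member of both libraries, with a median over members of 6304 CPM in KO and 10725 CPM in WT. Col1a1 was detected in 86.4% of KO and 71.7% of WT members and Col1a2 in 92.1% and 88.7%, each a larger share than in other dermal fibroblasts (49.4% and 47.2% for Col1a1). Col3a1, a major collagen of skin, was detected in 13.1% of KO and 15.1% of WT members, against 37.7% and 41.6% of other dermal fibroblasts.

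Compared with other dermal fibroblasts of the same library, members held large amounts of cochlin, asporin and further small leucine-rich proteoglycans. The members were chosen from the same counts, so these values are a description with no test. Of 4846 genes with a mean of 20 CPM or more in each library, 291 (6.00%) were 2-fold or more higher in members in both libraries and 347 (7.16%) were 2-fold or more lower in both. The mean was taken over members and other dermal fibroblasts. A gene near 0 in either group entered through the other and could only be called higher there. Coch, which encodes an extracellular matrix protein of the inner ear and immune organs, was detected in 206 of 214 KO and 51 of 53 WT members. Its level in single members ran from 0 to 46690 CPM with a median of 14811 in KO, and from 0 to 50197 CPM with a median of 20552 in WT. Its summed level was 15511 CPM in KO and 18920 CPM in WT members, against 53.7 and 172.9 CPM in other dermal fibroblasts, which is 289-fold in KO and 109-fold in WT. In keratinocyte-gate barcodes Coch stood at 4.95 CPM in KO and 10.3 CPM in WT.

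Of 8 small leucine-rich proteoglycans tested besides the rule's genes, 5 were 2-fold or more higher in both libraries and 2 were lower. Aspn was 43.1-fold higher in KO and 41.6-fold in WT members. Osteoglycin (Ogn) stood at 748 CPM in KO and 567 CPM in WT members, 45.2-fold and 23.0-fold above other dermal fibroblasts. Prelp was 6.69-fold and 4.72-fold higher, and Ecm2 8.97-fold and 8.28-fold. Keratocan (Kera), the keratan sulfate proteoglycan of the cornea, was found in 69 KO and 8 WT members, and with 1 UMI in KO and 0 UMIs in WT over all other dermal fibroblasts. Against a floor of 3 counts over that group its WT level of 47.9 CPM was at least 217-fold higher. Lumican (Lum) and podocan (Podn) were the 2 that were lower, Lum with 55.5 CPM in KO members and 239 CPM in WT members against 461 and 621 CPM in other dermal fibroblasts.

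Further genes at the top of the ranking had varied roles. Itga11, the collagen-binding integrin alpha 11 chain, stood at 136 CPM in KO and 134 CPM in WT members, and at 1.89 and 1.32 CPM in other dermal fibroblasts. Col11a1, a chain of the fibril-nucleating type XI collagen, was 71.4-fold higher in KO and 202-fold in WT members. Among 12 collagen genes tested outside the gate it was 1 of 2 that passed 2-fold in both libraries, the other being the anchoring fibril gene Col7a1 at 4.32-fold and 6.91-fold. Wif1, a secreted Wnt inhibitor, stood at 310 CPM in KO and 403 CPM in WT members, against 11.8 and 1.76 CPM, and the Wnt agonist Rspo4 at 97.9 and 50.4 CPM against 2.23 and 0.882 CPM. The homeobox factor Meox2 was detected in 141 of 214 KO and 30 of 53 WT members and was 50.6-fold and 116-fold higher. The peptide hormone gene Cck was detected in 99 KO and 28 WT members (363 and 439 CPM), against 5 of 1815 and 12 of 1916 other dermal fibroblasts. Cd200, an inhibitory surface ligand for myeloid cells, was 36.4-fold and 24.9-fold higher, the leptin receptor Lepr 13.0-fold and 17.5-fold, and the calcium channel gene Cacna1g stood at 114 CPM in KO and 52.9 CPM in WT members against 4.55 and 1.98 CPM. Abca8b, Gsta3, Fam26e and Itih5 complete the 15 genes first in rank, with ratios between 24.3 and 68.6.

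**Figure D2:**
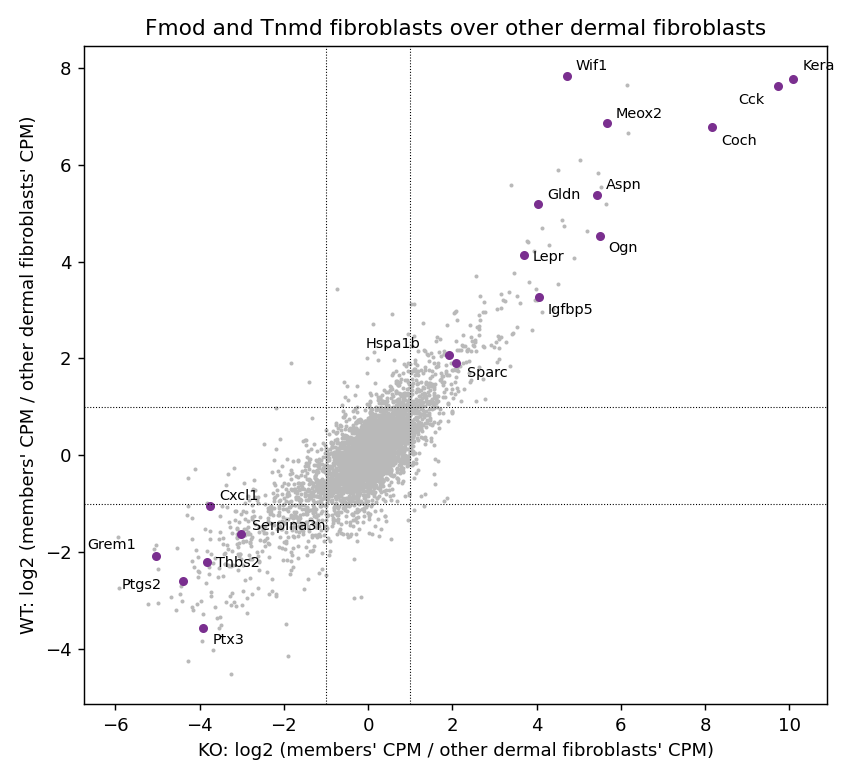
Ratio of members over other dermal fibroblasts for 4846 genes (grey points), KO on the horizontal and WT on the vertical axis, both as log2 of the ratio of CPM; dotted lines mark 2-fold and named genes are purple. Coch, Cck, Kera, Meox2 and Aspn lie at the upper right and Grem1, Ptgs2 and Ptx3 at the lower left in both libraries; a ratio against a group at 0 UMIs is set against 3 counts.

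Genes of the inflamed fibroblast programme lay lower in members. Of 18 acute phase, complement and IL-17 response genes tested, 0 were 2-fold or more higher in both libraries and 9 were lower, and of 12 genes of the chemokine list, which also holds the growth factor gene Csf1, 0 were higher and 8 lower. The prostaglandin synthase Ptgs2 stood at 90.0 CPM in KO and 353 CPM in WT members, against 1891 and 2155 CPM in other dermal fibroblasts. Serpina3n, an acute phase protease inhibitor, stood at 118 and 620 CPM against 957 and 1906 CPM. The chemokine Cxcl2 stood at 191 CPM in KO and 547 CPM in WT members, against 2271 and 3149 CPM. The monocyte chemokine Ccl2 was lower by less than that, with 3433 CPM in KO and 5705 CPM in WT members against 8068 and 8361 CPM. The median log2 ratio of the acute phase list was -2.52 in KO and -1.06 in WT, and that of the chemokines -3.05 and -1.33, against 0.07 and 0.05 over all 4846 genes.

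The 15 genes first among those lower in members included receptors, secreted factors and transcription factors. The pentraxin Ptx3 stood at 18.3 CPM in KO and 20.2 CPM in WT members, against 275 and 238 CPM. The opioid precursor Penk stood at 24.1 and 55.5 CPM against 427 and 512 CPM, and 16 of its 37 KO UMIs and 16 of its 22 WT UMIs lay in 1 barcode each. The IL-33 receptor Il1rl1, the endotoxin receptor Tlr4 and the activin subunit Inhbb stood at 4.57, 4.57 and 6.52 CPM in KO members and 7.56, 5.04 and 10.1 CPM in WT members. In other dermal fibroblasts they stood at 53.3, 68.6 and 62.4 CPM in KO and 90.6, 49.3 and 86.8 CPM in WT. The transcription factor genes Osr2, Creb5, Sox4 and Sox11 were also in this group, Sox4 with 19.6 CPM in KO and 17.6 CPM in WT members against 224 and 180 CPM. Thrombospondin 2 (Thbs2) stood at 228 CPM in KO and 663 CPM in WT members against 3238 and 3050 CPM, and the collagenolytic protease gene Ctsk at 455 and 935 CPM against 3078 and 4148 CPM. Of 12 matrix proteases and inhibitors 6 were 2-fold or more lower in both libraries, among them Mmp2, Mmp3 and Mmp14, and 1 was higher, Htra1 at 6.21-fold in KO and 5.61-fold in WT.

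The tendon list did not move as one. Of 12 tendon and ligament genes tested, 4 were 2-fold or more higher in both libraries and 5 were lower. The 4 were Kera, Col11a1, the tendon transcription factor gene Mkx (127 CPM in KO and 108 CPM in WT members, 6.65-fold and 7.72-fold) and Tppp3. Kera and Col11a1 were near 0 in other dermal fibroblasts. They reached the mean of 20 CPM through the members and could only be called higher. Kera is also counted among the proteoglycans. Tenascin C (Tnc), Thbs1, Thbs2, Htra3 and Sox9 were the 5 that were lower. Scx, which encodes scleraxis, had 2 UMIs in KO members and 0 in WT members (up to 7.56 CPM), and Comp, Chad and Cilp2 had 0 in both.

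Other lists were mixed or showed one side. The 2-fold counts of these lists and those above stand against 6.00% higher and 7.16% lower over all 4846 genes tested. Of 7 dermal papilla genes outside the rule, 4 were higher in both libraries (Rspo4, Wif1, Trps1 and Lepr) and 1 lower, Vcan. Rspo4 and Wif1 were near 0 in WT other dermal fibroblasts. They reached the mean of 20 CPM there through the members and could only be called higher. The median log2 ratio of this list in KO was 1.85, and -0.35 without a level filter. Of 7 papillary dermis genes 4 were higher, among them the membrane glycoprotein gene Gpm6b at 825 CPM in KO and 703 CPM in WT members against 144 and 148 CPM, and 1 was lower. Of 8 reticular and adipogenic genes 0 were higher and 4 lower. Of 15 YAP and TEAD targets 5 were higher (Ctgf, Amotl2, Lats2, Asap1 and Myof) and 1 lower, with a list median of -0.41 in KO and -0.39 in WT. In WT Ctgf was detected in only 4 of 53 members (7.55%), against 3.97% of 1916 other dermal fibroblasts. Of 16 heat shock genes 6 were higher and 0 lower, Hspa1b with 1740 CPM in KO and 781 CPM in WT members against 459 and 186 CPM. Of 10 interferon-stimulated genes 4 were higher and 0 lower, Ifit2 with 98.5 and 50.4 CPM against 7.21 and 2.35 CPM. Ifit2 likewise reached the mean of 20 CPM in WT through the members and could only be called higher. The list matched 29 genes, so most of it was below the level needed. Of 12 growth factors 2 were higher, Igf1 and Vegfc, and 7 lower, among them Fgf7, Csf1 and Kitl. Of 16 TGF-beta genes 1 was higher (Wisp1) and 2 lower. Of 13 collagen processing genes 2 were higher, the collagen chaperone gene Serpinh1 at 4.25-fold in KO and 3.05-fold in WT and Sparc at 4.23-fold and 3.77-fold, and 1 was lower. Of 15 elastic fibre genes 3 were higher (Mfap5, Fbln5 and Ltbp4) and 2 lower. None of the 16 nicotinic receptor genes reached the level needed for the count.

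Members also carried Pi16, a marker of the fibroblasts of vessel sheaths and fascia, which were set apart from the other dermal fibroblasts by their Pi16 plus Dpp4 UMIs. Pi16 stood at 565 CPM in KO and 547 CPM in WT members, against 476 and 492 CPM in those Pi16 or Dpp4 fibroblasts (508 in KO, 482 in WT). Dpp4 had 4 UMIs in KO members and 1 in WT members. The list of genes of such fibroblasts was mixed. Of 13 tested, 4 were 2-fold or more higher in members than in other dermal fibroblasts in both libraries. Pi16 itself is on this list. Other dermal fibroblasts were limited to fewer than 2 UMIs of Pi16 plus Dpp4 and members were not. The higher call of Pi16, here and in the count over all genes, therefore follows from that limit and shows nothing about members. On the same list 3 were lower, among them Creb5, and the median log2 ratio was -0.68 in KO and 0.54 in WT. Members with 3 or more UMIs of the pair were 86 of 214 in KO (40.2%, 33.6 to 47.1) and 28 of 53 in WT (52.8%, 38.6 to 66.7). Coch separated these populations, at 144 CPM in KO and 586 CPM in WT Pi16 or Dpp4 fibroblasts.

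Members varied among themselves along their number of Fmod and Tnmd UMIs. Coch stood at 2490 CPM in KO members with 3 to 4 UMIs, 5960 CPM with 5 to 9 and 18200 CPM with 10 or more, and at 3951, 5267 and 25179 CPM in the same WT members. In barcodes just outside the rule, with 1 to 2 UMIs, it stood at 324 CPM in KO and 620 CPM in WT. Aspn, Gldn and Igfbp5 were likewise at their highest with 10 or more UMIs in both libraries. Igfbp5, a binding protein of insulin-like growth factors, stood at 193 CPM in KO and 329 CPM in WT members with 3 to 4 UMIs, and at 4461 and 2096 CPM in those with 10 or more. Cxcl1 went the other way, with 656 CPM in KO and 3133 CPM in WT members with 3 to 4 UMIs, and 108 and 500 CPM in those with 10 or more. Members with 3 to 4 UMIs thus held less Coch, Aspn and Gldn and more Cxcl1 than those with 10 or more, and they made up 13.1% of KO (8.87 to 18.4) and 20.8% of WT members (10.8 to 34.1). Ratios of KO over WT were therefore also computed in members with 10 or more UMIs.

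**Figure D3:**
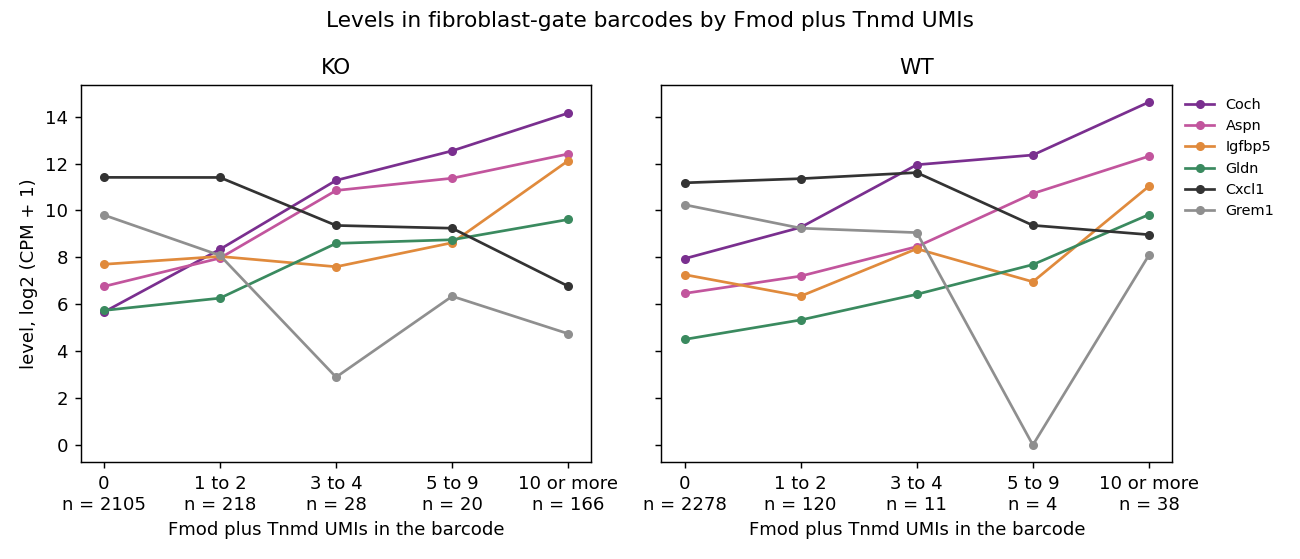
Level of 6 genes as log2 of CPM plus 1 (vertical axis) in fibroblast-gate barcodes by their number of Fmod plus Tnmd UMIs (horizontal axis, with the number of barcodes n), KO left and WT right. Coch, Aspn and Gldn are highest with 10 or more UMIs in both libraries and Cxcl1 is lowest there; the WT point at 5 to 9 UMIs rests on 4 barcodes and has 0 Grem1 UMIs.

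Members with both Fmod and Tnmd were set against those with Fmod alone, 181 and 24 in KO and 40 and 8 in WT. Those with Fmod alone also held less Fmod, 2204 CPM in KO and 1240 CPM in WT, against 5079 and 4610 CPM with both. Their Coch was lower too, 7882 and 12456 CPM against 16953 and 23796 CPM. The split thus overlaps the one by number of UMIs, and the part of Tnmd alone was not tested. Ogn stood at 836 CPM in KO and 720 CPM in WT members with both, against 113 and 120 CPM with Fmod alone. Cck stood at 413 and 574 CPM with both, against 24.1 and 180 CPM with Fmod alone, and Rspo4 at 111 and 66.1 CPM, against 1 UMI in each library with Fmod alone. Tnc was lower with both, 65.6 CPM in KO and 195 CPM in WT, against 402 and 800 CPM with Fmod alone, and so was the hyaluronidase gene Cemip at 35.8 and 80.0 CPM against 314 and 480 CPM. The 8 WT barcodes with Fmod alone hold 50016 UMIs in all, so the WT values of low genes rest on few counts.

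Of the rule's papilla genes, Crabp1 and Dkk2 were common in members. In other dermal fibroblasts Crabp1 was detected in 2.98% of KO and 3.34% of WT barcodes, and Dkk2 in 14.5% and 13.2%. Crabp1, a retinoic acid binding protein, was detected in 61.2% of KO and 60.4% of WT members, and the Wnt modulator gene Dkk2 in 63.6% and 47.2%, whereas Lef1, Rspo3, Pappa2 and Dio2 stood between 0 and 10.1 CPM in both. With the exclusion at 3 of the 6 genes, 97 of 214 KO members (45.3%) and 19 of 53 WT members (35.8%) held 2 of them. The exclusion removed 18 KO and 0 WT barcodes with 3 or more Fmod plus Tnmd UMIs, and those 18 held 18482 CPM of Coch, 4491 CPM of Aspn and 5655 CPM of Fmod, close to the KO members with 10 or more UMIs (18200, 5439 and 5595 CPM).

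Members made up a larger share of the KO than of the WT fibroblast gate. They were 214 of 2583 gate barcodes in KO (8.28%, 7.25 to 9.42) and 53 of 2498 in WT (2.12%, 1.59 to 2.77). Among all kept barcodes the shares were 2.23% in KO and 0.456% in WT. After thinning every barcode to 1000 UMIs the shares of the gate were 6.18% in KO and 1.23% in WT. With a collagen and Dcn limit of 2% in place of 0.5%, the direction turned, with 3 of 229 barcodes in KO (1.31%) and 12 of 340 in WT (3.53%). Median mitochondrial shares of members were 1.74% in KO and 1.54% in WT. A UMI of the cycling genes Mki67 or Top2a was held by 2 of 214 KO and 1 of 53 WT members, against 2.31% of 1815 KO and 5.11% of 1916 WT other dermal fibroblasts.

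Asporin, gliomedin, osteoglycin and cochlin differed by less than 1.5-fold between KO and WT members, while many acute phase and complement genes were 2-fold or more lower in KO. Of 5179 genes with a mean of 20 CPM or more over the libraries, 248 (4.79%) were 2-fold or more higher in KO members and 241 (4.65%) were 2-fold or more lower. In members with 10 or more Fmod plus Tnmd UMIs the counts were 296 (5.80%) and 229 (4.49%) of 5104, and in other dermal fibroblasts 94 (1.85%) and 83 (1.64%) of 5072, where many more barcodes were summed. The KO over WT ratio was 1.29 for Aspn (1.22 to 1.36), 1.06 for Gldn (0.930 to 1.22), 0.82 for Coch (0.799 to 0.841), 1.32 for Ogn (1.14 to 1.53) and 0.613 for Lepr (0.529 to 0.711). With 10 or more UMIs the ratio was 1.07 for Aspn and 0.864 for Gldn. For Coch the KO and WT levels given above for members with 10 or more UMIs lay further apart than in all members, with KO lower.

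Several genes were higher in KO members. The chemokine receptor Cxcr4 was detected in 95 of 214 KO members (44.4%, 37.6 to 51.3) and 9 of 53 WT members (17.0%, 8.07 to 29.8). Its level was 191 CPM in KO and 32.8 CPM in WT members, a ratio of 5.83 (3.36 to 11.1), and 5.65 with 10 or more UMIs. In other dermal fibroblasts Cxcr4 stood at 5.23 CPM in KO and 2.65 CPM in WT. Igfbp5 stood at 3664 CPM in KO and 1555 CPM in WT members, a ratio of 2.36 (2.17 to 2.56), and over single members its median was 2343 CPM in KO and 706 CPM in WT. The stress-induced factor Nupr1 stood at 2719 CPM in KO and 1235 CPM in WT members (2.20, 2.00 to 2.42), against a ratio of 0.98 in other dermal fibroblasts. The Wnt receptor Fzd2 was at 205 CPM in KO and 63.0 CPM in WT members (3.25, 2.16 to 5.10). The metalloprotease inhibitor Timp3 was at 199 and 47.9 CPM (4.15, 2.61 to 7.00) and the basement membrane gene Ntn4 at 62.0 and 10.1 CPM (6.15, 2.32 to 23.0). Neuroglobin (Ngb), an oxygen-binding globin, was found in 48 KO and 2 WT members. The small heat shock protein gene Hspb1 stood at 891 CPM in KO and 323 CPM in WT members (2.76, 2.30 to 3.33). Fos and Ctgf were higher in KO in both populations, with ratios of 2.66 and 3.08 in members and 2.45 and 5.36 in other dermal fibroblasts. Ctgf was detected in 51 of 214 KO but only 4 of 53 WT members, and 1 WT barcode held 9 of its UMIs.

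Some of these rested on single barcodes. Of the 66 KO UMIs of Rgs5, a pericyte gene, 51 lay in 1 barcode, and of the 108 KO UMIs of the adipocyte gene Fabp4, 77 did. Cryab had 85 UMIs in KO and 1 in WT members, a ratio of 22.0 (3.84 to 879), with 31 of the KO UMIs in 1 barcode. The homeobox gene En1 and the pseudokinase gene Trib2 stood at 54.2 and 48.9 CPM in KO members and at 7.56 CPM each in WT members, which is 3 UMIs. With a minimum of 2 Fmod plus Tnmd UMIs in the rule, the ratios of En1 and Fabp4 turned to 0.817 and 0.957.

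Acute phase and complement genes were lower in KO members. Of 19 acute phase, complement and IL-17 response genes tested, 0 were 2-fold or more higher in KO members and 18 were lower, with a median log2 ratio of -1.97 against 0.08 over all 5179 genes. In members with 10 or more UMIs 10 of 14 were lower (median -1.71), and in other dermal fibroblasts 13 of 25 (median -1.01), so the same side was seen there. The neutrophil lipocalin gene Lcn2 had 7 UMIs in KO members and 63 in WT members (4.57 and 159 CPM, ratio 0.0288), and in other dermal fibroblasts its ratio was 0.0224. Genes near 0 in KO members, such as Lcn2, reached the mean of 20 CPM through the WT members and could only be called lower. Keratinocyte-gate barcodes held 87.9 CPM of Lcn2 in KO and 701 CPM in WT, and the part of free RNA in the members' counts was not tested. Saa3, an acute phase apolipoprotein, was detected in 12 of 214 KO and 17 of 53 WT members. Its level was 195 CPM in KO and 789 CPM in WT members (0.247, 0.210 to 0.291), and 437 and 4296 CPM in other dermal fibroblasts, and 1 KO barcode held 143 of its 299 UMIs. Serpina3n had a ratio of 0.19 (0.156 to 0.232) and complement C3 of 0.108 (0.0689 to 0.167). C3 rested on few barcodes, as it was detected in 10 of 214 KO and 10 of 53 WT members. In WT 1 barcode held 32 of its UMIs. Members with 3 to 4 Fmod plus Tnmd UMIs (28 in KO, 11 in WT) held 25 C3 UMIs in KO and 68 in WT. The median of the list in members was -1.66 without each gene's highest barcode (17 genes) and -0.77 after thinning to 1000 UMIs (12 genes).

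Chemokines lay lower in KO members too, as did 5 of 8 reticular and adipogenic genes (1 was higher, Fabp4), whose median log2 ratio was -1.68 in members and -0.35 with 10 or more UMIs. Of 11 genes of the chemokine list 6 were 2-fold or more lower and 1 higher, with a median log2 ratio of -1.26. With 10 or more UMIs 3 of 9 were lower (median -0.80), and in other dermal fibroblasts 1 of 16 (median -0.40). The median in members was -0.55 with a minimum of 5 UMIs and -0.62 with both genes required. The one that was higher, Ccl20, had 130 of its 163 KO UMIs in 1 barcode, and its ratio turned to 0.949 without its highest barcodes and 0.645 with 10 or more UMIs. Cxcl1 stood at 208 CPM in KO and 1134 CPM in WT members (0.183, 0.158 to 0.212). Cxcl1 was detected in 72 of 214 KO and 30 of 53 WT members, and 1 WT barcode held 203 of its 450 UMIs, without which, and without the highest KO barcode, the ratio was 0.288. In other dermal fibroblasts Cxcl1 was not lower in KO, with 2804 CPM in KO and 2340 CPM in WT. Apolipoprotein D (Apod) stood at 322 CPM in KO and 1629 CPM in WT members (0.198, 0.175 to 0.222), with a median over single members of 143 CPM in KO and 844 CPM in WT. The BMP antagonist gene Grem1 was found in 5 KO and 6 WT members, and 75 of its 126 WT UMIs lay in 1 barcode. Lif, a cytokine of the IL-6 family, had 42 UMIs in KO members and 95 in WT members (0.114, 0.0776 to 0.166), of which 55 lay in 1 WT barcode. For Wfdc12, Fmo2 and Mgp all WT UMIs (27, 54 and 83) lay in 1 barcode each, and for Cxcl5, Slpi and Prg4 1 barcode held 20 of 21, 52 of 68 and 25 of 37. Gpx3, Cpxm1 and Cxcl12 were found in 8 to 12 WT members, and the ratio of Cxcl12 was 0.138 in all members and 0.86 in those with 10 or more UMIs. With a minimum of 5 UMIs, or with both genes required, its direction turned, with ratios of 1.03 and 1.11. That of Mgp turned where both genes were required, with 47 UMIs in KO and 0 in WT members.

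**Figure D4:**
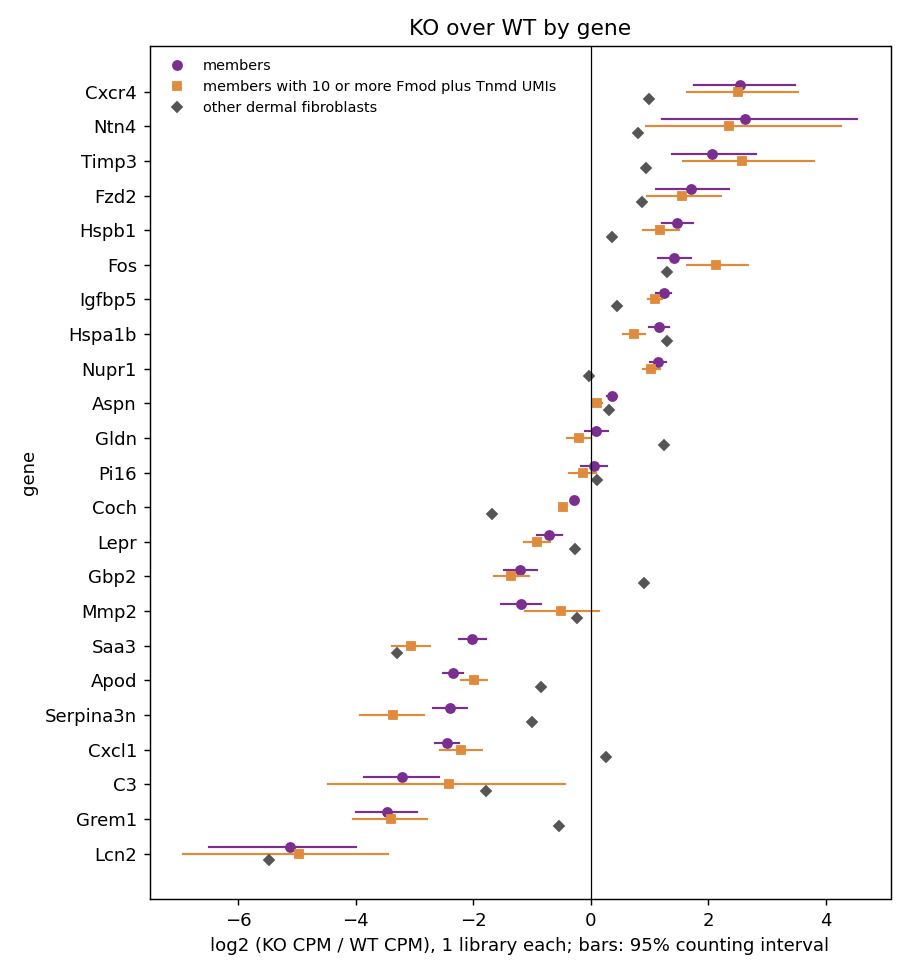
KO over WT ratio of CPM (horizontal axis, log2) for 23 genes, in members (purple circles), in members with 10 or more Fmod plus Tnmd UMIs (orange squares) and in other dermal fibroblasts (grey diamonds); bars on the circles and squares are exact 95% intervals of counting error and each genotype is 1 library. Cxcr4 (5.83 and 5.65) and Igfbp5 (2.36 and 2.13) lie right of 0 in members of both kinds, Aspn and Gldn near 0, and Saa3, Cxcl1 and Lcn2 left of it.

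Of 16 heat shock genes 5 were 2-fold or more higher in KO members and 1 lower (median 0.64). With 10 or more UMIs only 1 was higher and 1 lower (median 0.60), and in other dermal fibroblasts 2 were higher and 0 lower (median 0.53). Hspa1b, an inducible Hsp70, had a ratio of 2.23 in members (1.98 to 2.51), 1.66 with 10 or more UMIs and 2.46 in other dermal fibroblasts. Of 15 interferon-stimulated genes 3 were higher in KO members (Ifit1, Bst2 and Igtp) and 2 lower (Gbp2 and Gbp7). Gbp2, an interferon-induced GTPase, stood at 191 CPM in KO and 439 CPM in WT members, against 93.9 and 50.1 CPM in other dermal fibroblasts. Of 22 immediate early genes 3 were higher and 0 lower. The KO over WT counts of these lists and those above stand against 4.79% higher and 4.65% lower over all 5179 genes in members. The small leucine-rich proteoglycans had 1 of 8 higher, Ecm2 at 2.14 (0.868 after thinning to 1000 UMIs), and 3 lower, Bgn, Lum and Podn, and of those 3 only Podn was still past 2-fold with 10 or more UMIs, at 0.393.

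Markers of other cell types were measured in members. The leukocyte markers Ptprc, Cd3e, Cd3d and Trdc had 0 UMIs in both libraries. All 14 leukocyte markers together came to 126 CPM in KO and 65.5 CPM in WT members, against 132 and 217 CPM in other dermal fibroblasts, and 1 KO barcode reached 16579 CPM. Of 12 Schwann cell markers 9 had UMIs in KO and 4 in WT members, summing to 236 CPM in KO and 297 CPM in WT members, against 306 and 305 CPM in other dermal fibroblasts, and Sox10, Cdh19 and Egfl8 were at 0 in both. The 13 keratinocyte markers summed to 1261 CPM in KO and 1240 CPM in WT members, against 860 and 2065 CPM in other dermal fibroblasts. Over single members their median was 635 CPM in KO and 1413 CPM in WT, and the highest KO barcode reached 23387 CPM. The 10 pericyte and smooth muscle markers were higher in members, with 228 CPM in KO and 113 CPM in WT members against 92.2 and 28.2 CPM in other dermal fibroblasts. Of these markers 9 were detected in KO and 5 in WT members, and Kcnj8 was at 0 in both. Most of the sum came from Ndufa4l2, at 145 CPM in KO and 90.8 CPM in WT members against 17.3 and 11.2 CPM, and the 51 Rgs5 UMIs of 1 KO barcode are in it. The 10 endothelial markers summed to 18.3 CPM in KO and 17.6 CPM in WT members, against 32.1 and 27.0 CPM, with Kdr, Lyve1 and Flt4 at 0 in members of both. The part of these cells in the KO against WT values was not tested beyond leaving out barcodes with markers of another class, which left 250 genes 2-fold or more higher and 255 lower.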

How the data were processed

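Single-cell RNA libraries of digested back skin were counted per barcode, and the deposited matrices hold whole-number counts of UMIs for 31053 genes. Per the submitters' processing notes, Cell Ranger 3.0.2, Seurat 3.0 and the mm10 build were used, and per the file headers the matrix software version was 3.1.0; no source used here gives the read filters. Counts were summed over members of each library and divided by the sum of all their UMIs and scaled to 1e6 (CPM), with Python 3.11.15, numpy 2.4.6, scipy 1.17.1, pandas 2.3.3 and matplotlib 3.10.9. Members held 1532666 UMIs in KO and 396675 in WT. Intervals are exact at 95% (Clopper-Pearson for shares, Poisson for sums, conditional binomial for ratios) and cover counting error only. A count of 0 was set against a floor of 3 counts, and the CPM limits printed for genes with 0 UMIs are that floor. Genes needed a mean of 20 CPM over the groups compared for a count of 2-fold ratios, so a gene near 0 in either group entered through the other. Calculations were tested on simulated data. Gene positions follow GENCODE vM21.

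Members, gene lists and the gene rule were chosen with earlier results of these data known. Genes named are the members' markers, the 15 first each way over other dermal fibroblasts and between KO and WT (by the interval bound nearest 1), the highest and most different of each list, the 8 first each way between members with both genes and with Fmod alone, and up to 5 each way that differ from other dermal fibroblasts. Rule genes, mitochondrial, ribosomal and sex-linked genes and genes under 20% of their keratinocyte-gate or leukocyte-gate level, judged in the library where members held more, were left out of the rankings, and other genes named were chosen after their values were seen. Alternatives changed the scale, the filters, the rule's minimum, the depth, the gate and the barcodes kept. The cream-base group was not analysed here.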

Additional observations from a re-analysis of the deposited data

Results flagged for a closer look

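Fmod and Tnmd also appeared outside the fibroblast gate. In the KO library 38 of 7022 kept barcodes outside the gate (0.541%) held 3 or more UMIs of the pair, against 6 of 9128 in the WT library (0.0657%). Of the 38 KO barcodes 36 lay below the collagen limit, 4 lay over the keratin limit and 8 held 10 or more UMIs. The papilla exclusion removed 18 of 232 KO barcodes with 3 or more UMIs of the pair (7.76%) and 0 of 53 in WT, which allows a share of up to 6.72%.

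A few genes were 1.5-fold or more apart between KO and WT in opposite directions in members and in other dermal fibroblasts, and these differences were not tested. Lgals1 (galectin 1), Abcc5 and Hmga2 had KO over WT ratios of 1.64, 1.77 and 1.58 in members and 0.63, 0.57 and 0.54 in other dermal fibroblasts. Irx1, Ereg, Vcam1, Postn and Mgp had ratios of 0.169, 0.253, 0.281, 0.310 and 0.147 in members and 1.59, 3.39, 2.13, 1.87 and 2.65 in other dermal fibroblasts. In WT members 102 of 152 Postn UMIs and all 83 Mgp UMIs lay in 1 barcode. The Postn ratio turned to 2.06 in members with both genes and to 1.14 in those with 10 or more UMIs, and that of Mgp to 3.35 in members with both genes, where WT had 0 UMIs.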

How the results depend on the processing

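No paired analysis was possible because there is 1 library per genotype. Of the alternatives to shares and counts of genes, 53 values stayed close and 23 moved. The KO and WT shares of the fibroblast gate were 9.87% and 3.04% with a minimum of 2 UMIs, 6.43% and 1.52% with 10, and 6.18% and 1.23% after thinning to 1000 UMIs. The KO share was 7.20% with a minimum of 5 and 7.01% with both genes required. At a collagen and Dcn limit of 2% the shares were 1.31% and 3.53%, and too few members were left for levels. Counts of genes higher and lower than in other dermal fibroblasts were 559 and 551 at 5 CPM, 855 and 591 without a level filter and 185 and 157 with a minimum of 2 UMIs. KO over WT counts were 840 and 707 at 5 CPM, 1029 and 689 without a filter, and 432 and 537 after thinning. Leaving out each gene's highest barcode in each library, an alternative chosen after seeing the data, gave 337 higher and 133 lower. It takes 1 of 214 KO but 1 of 53 WT members for each gene, so it weighs more on the WT sums. Leaving out barcodes found in both libraries, also chosen then, moved no count past 1.5 times. The dermal papilla median in KO turned to -0.35 without a filter. En1 and Fabp4 turned to 0.817 and 0.957 with a minimum of 2, Cxcl12 to 1.03 with a minimum of 5 and 1.11 with both genes required, and Mgp to 3.35, where WT had 0 UMIs. Postn turned to 2.06 with both genes required and 1.14 with a minimum of 10. Ccl20 turned to 0.645 with a minimum of 10, 0.804 without barcodes of another class, 0.799 without barcodes over 20000 UMIs and 0.949 without its highest barcodes. Penk turned to 2.86 and 1.57 with a minimum of 5 and 10 and Galnt15 to 1.54 with 5, on 1 to 2 WT UMIs. After thinning Ecm2 turned to 0.868 and Steap4 to 1.17. The causes were not tested. With 53 WT members, genes under 20 CPM in WT rest on fewer than 8 UMIs.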
